A study of Anser cygnoides with 6 samples.

Results

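The facilitated glucose transporters, or SLC2 family, were followed in liver RNA of lion-head geese (Anser cygnoides). Members were the gene models whose deposited description named a facilitated glucose transporter or a family 2 solute carrier, or carried the sugar transporter or glucose transporter signature. The rule found 21 of the 21009 models in the mRNA table. Each library came from 1 bird, and 3 birds were high-intake-fed and 3 normally fed. The geese of the study were adult, purebred lion-head geese. The high-intake-fed birds were force-fed meals that included boiled rice, the normally fed birds ate at will, each group had its own isolator, and feed was withheld overnight before the livers were taken. The paper states that all geese were given the same diet and that energy intake differed between the groups. Isolator, manner of feeding and amount eaten therefore cannot be told apart, nor can any difference in what the meals held. The sources used here do not give the sex of the 6 birds. Depth was 14154910 to 16993373 counts per library, so that 3 counts, the most that a count of 0 allows, correspond to 0.177 to 0.212 CPM (counts scaled to the size of the library). That floor covers counting error only. Across all models tested, which are not independent, log2 levels of the normally fed birds correlated with each other at r = 0.968 to 0.973 and those of the high-intake-fed birds at r = 0.927 to 0.947.

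SLC2 proteins, called GLUT after glucose transporter, let hexoses cross membranes down their concentration gradient. They need no sodium gradient and no ATP, and most can carry sugar in either direction. In the liver GLUT2 is known as the high-capacity carrier that lets glucose into the hepatocyte after a meal and out of it during fasting. Once inside, glucose is held by phosphorylation, which hexokinases carry out, and is set free again by glucose-6-phosphatase. The family has 3 sequence classes. The first holds the classical glucose carriers GLUT1 to GLUT4, the second holds the fructose carrier GLUT5 and its relatives, and the third holds carriers that often lie on internal membranes, such as GLUT8, GLUT10 and GLUT12.

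Of the 21 models, 9 carried a class 1 domain, 8 a class 2 domain and 4 a class 3 domain, and 18 had a member number in their description. Those 18 models carried 13 different member names. A group of 15 models had 1446 to 1869 coding bases, while the other 6 had 384 to 1155 coding bases and are read here as incomplete models. The member 3 name fell on 2 models of equal coding length (1497 bases), and the member 1 and member 4 names fell on several models. Where models share a name the counting could have split reads between them, so their single values are uncertain. No SLC2 model overlapped the models next to it, up to 3 on each side in order of start. Models further off were not checked.

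A total of 12 SLC2 models had enough counts to be tested, and 9 did not. Of the 12, 1 passed the adjusted p threshold of 0.05 and was higher in the high-intake-fed geese, whereas among all 12914 models tested 1.47% passed in either direction and 0.643% passed as higher. This was the member 12 model (GLUT12), whose level was 11.7-fold higher. The groups did not overlap for 3 of the 12 models, those of members 12, 2 and 10, each higher in the high-intake-fed geese, though for member 10 they did overlap when scaled by library size alone. Over all models tested 24.4% had groups that did not overlap, which is close to the share of 3 in 12. An unadjusted p under 0.05 together with a fold change over 2 was met by 2 of the 12, members 12 and 2, beside 9.59% of all models. The median log2 fold change of the 12 was 0.34, and that of all models tested was 0.04. Of the 12 values 9 were above 0, as were 6823 of 12914 over all models. In simulated data with 3 birds per group, 16% of models changed by 2-fold were recovered, 92% of those changed by 4-fold and 100% of those changed by 8-fold. Every simulated model was given the same variation between birds, and the changed ones were drawn only from models above a minimum mean count. The SLC2 models differed in that variation, and not all tested ones reached that count, so these rates need not hold for each of them.

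**Figure D1:**
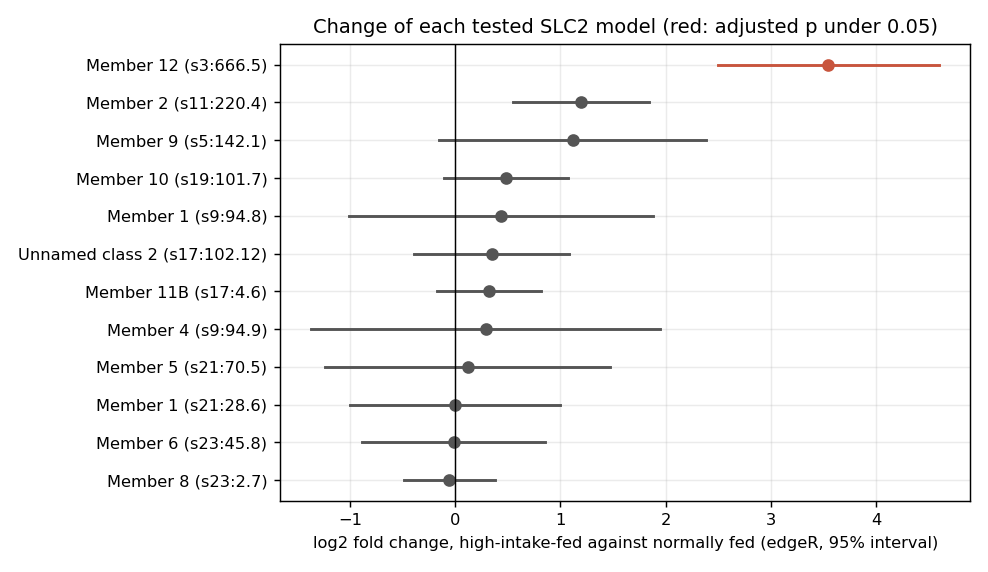
Log2 fold change of each of the 12 tested SLC2 models between high-intake-fed and normally fed geese (points, edgeR) with its 95% interval (lines), in order of size. The member 12 model stands at 3.55 and is the only one drawn in red for an adjusted p under 0.05, and the interval of member 2, at 1.19, also lies above 0.

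The member 12 model was maker-Hic_scaffold_3-augustus-gene-666.5. In the coordinates of the table, whose genome build the sources used here do not name, it lies on the minus strand of chromosome 3 from 66651326 to 66659530. It spans 8205 bases, of which 1464 are coding, and carries a class 3 domain. GLUT12 is known from mammals as a glucose carrier that insulin can bring to the surface of muscle and fat cells. Its counts in normally fed replicates 1, 2 and 3 were 13, 29 and 10. In high-intake-fed replicates 1, 2 and 3 they were 217, 237 and 131. The lowest high-intake-fed bird held 131 counts and the highest normally fed bird 29, so the groups lay far apart.

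Scaled to the library, the member 12 model stood at 0.864, 1.71 and 0.644 CPM in the normally fed birds and at 15.09, 15.04 and 7.97 CPM in the high-intake-fed birds. High-intake-fed replicate 3 was the lowest of its group, and normally fed replicate 2 the highest of its own. The means were 1.07 ± 0.565 CPM (SD, n = 3) and 12.7 ± 4.10 CPM (SD, n = 3). The log2 fold change was 3.55 ± 0.456 (SE), with a 95% interval of 2.50 to 4.60 and an adjusted p of 0.0166 by edgeR's quasi-likelihood test. Among all models tested it ranked 40 by p and 34 by upward change. An exact permutation test of the 6 birds, two-sided, gave p = 0.1, the smallest value that 3 against 3 can give. Without normally fed replicate 1 or 3 the adjusted p was 0.0783 or 0.0803, with log2 fold changes of 3.41 and 3.32, and no SLC2 model passed.

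The deposited FPKM (fragments scaled by the length of the model and the depth of the library) of the member 12 model gave the same separation. They were 0.149, 0.508 and 0.176 in the normally fed birds and 4.64, 4.58 and 1.93 in the high-intake-fed birds. The models around it on chromosome 3 did not pass the test. The nearest lay 27769 bases before it and 29055 bases after it, the latter described as a ribosomal protein S6 kinase, with log2 fold changes of 0.30 and 0.57 and adjusted p of 0.529 and 0.619. The next on the first side, described as transcription factor 21, had a log2 fold change of 0.27.

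**Figure D2:**
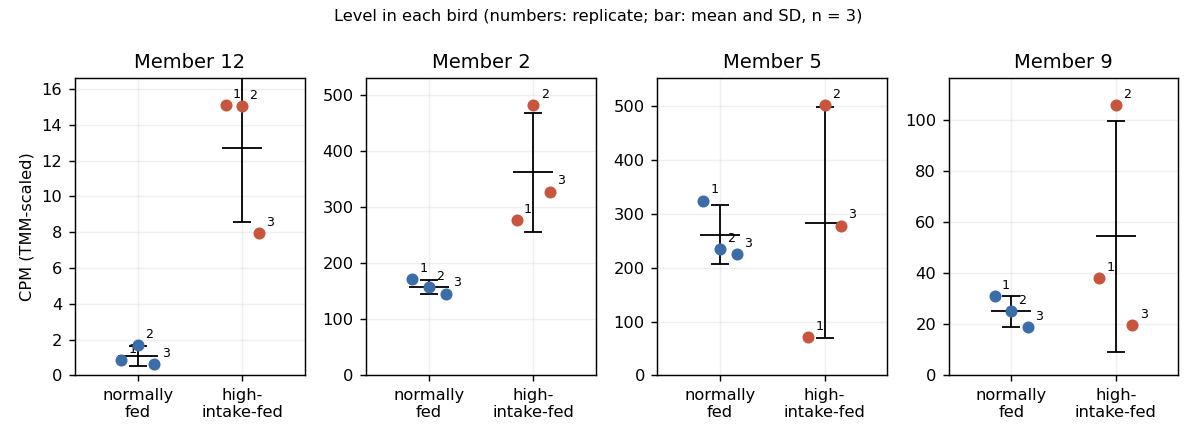
TMM-scaled CPM (y axis, from 0, a separate scale in each panel) of the models of members 12, 2, 5 and 9 in each bird, with the replicate number beside each point and the group mean and SD as bars (n = 3). For members 12 and 2 all high-intake-fed birds lie above all normally fed birds, whereas for members 5 and 9 high-intake-fed replicates 1, 2 and 3 spread on both sides of the normally fed mean.

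Member 2 (GLUT2) was the other model whose interval lay above 0. Its model, maker-Hic_scaffold_11-augustus-gene-220.4, lies on chromosome 11 from 22019258 to 22027183, plus strand, with 1629 coding bases. The normally fed birds stood at 171, 158 and 146 CPM and the high-intake-fed birds at 277, 482 and 328 CPM. All 3 high-intake-fed birds were above all 3 normally fed birds, and the normally fed birds lay close together. The means were 158 ± 12.6 and 362 ± 107 CPM (SD, n = 3 each). The fold was 2.29, with a 95% interval of 1.47 to 3.57, and the log2 fold change was 1.19 ± 0.279 (SE). It did not pass in edgeR's quasi-likelihood test (adjusted p = 0.0859). It did pass with DESeq2 (adjusted p = 0.00109) and with edgeR's exact test (adjusted p = 0.0127), and over all its alternatives the adjusted p ran from 0.00109 to 0.304. The exact permutation p was 0.1.

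In the FPKM the member 2 model stood at 29.7, 27.9 and 23.9 in the normally fed birds and at 50.1, 88.2 and 58.1 in the high-intake-fed birds. The groups were again apart, in the same direction.

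Member 5 (GLUT5), known as a fructose carrier, had the highest level per coding length of the family in the normally fed geese. Its model, maker-Hic_scaffold_21-augustus-gene-70.5, lies on chromosome 21 and has 1809 coding bases. The normally fed birds stood at 325, 235 and 226 CPM. The high-intake-fed birds stood at 71.9, 502 and 279 CPM, a spread of 6.98-fold between the lowest and the highest bird, against 1.44-fold in the normally fed group. High-intake-fed replicate 1 was below and replicate 2 above every normally fed bird. The log2 fold change was 0.12, with an interval of -1.23 to 1.47 (adjusted p = 0.940). Without high-intake-fed replicate 2 it was -0.58, and without replicate 1 it was 0.58, so that its direction rests on single birds.

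The order of members 2 and 5 differed between the groups. Per coding length the ratio of member 2 to member 5 was 0.586, 0.746 and 0.719 in the normally fed birds and 4.28, 1.07 and 1.31 in the high-intake-fed birds. In the normally fed birds member 5 was thus the higher in each bird, and in the high-intake-fed birds member 2 was. From the deposited FPKM the ratios were 0.611, 0.771 and 0.791 against 5.39, 1.34 and 1.56. This ratio was chosen after the values were seen and is given without a test.

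Member 9 (GLUT9) is known in mammals as a carrier of urate. Its model, maker-Hic_scaffold_5-augustus-gene-142.1 on chromosome 5, spans 98877 bases, the longest span of the 21 models, for 1536 coding bases. The normally fed birds stood at 31.2, 25.2 and 18.9 CPM and the high-intake-fed birds at 38.1, 106 and 19.6 CPM. One bird, high-intake-fed replicate 2, stood well above the other 5, and the groups overlapped. The log2 fold change was 1.12 ± 0.551 (SE; adjusted p = 0.331), and without that bird it was 0.20.

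On chromosome 17 a row of 4 class 2 models lay within 55.8 kb, from 10123439 to 10179199, all on the plus strand. Only 1 of them had more than 15 counts in any bird. This was an unnamed model, maker-Hic_scaffold_17-augustus-gene-102.12, with 1500 coding bases. It stood at 56.2, 38.3 and 49.3 CPM in the normally fed birds and at 45.7, 45.4 and 92.1 CPM in the high-intake-fed birds. High-intake-fed replicate 3 stood apart above the other 5 birds. The log2 fold change was 0.35 ± 0.319 (SE; adjusted p = 0.621), and without that bird it was -0.07. The other 3 models of the row, 2 of them unnamed and 1 a short model with the member 11 name, had 0 to 15 counts per bird and were not tested.

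The member 11B model, maker-Hic_scaffold_17-augustus-gene-4.6, lies apart from that row near the start of the same chromosome. GLUT11 is known in humans as a carrier of glucose and fructose. In CPM the member 11B model varied little, from 11.6 to 16.1 in the normally fed and from 15.5 to 18.7 in the high-intake-fed birds. In the FPKM it varied more, with 0.810, 0.605 and 0.925 against 0.983, 1.29 and 0.744. High-intake-fed replicate 3 was the highest of its group in CPM and the lowest in FPKM. The groups overlapped, and the log2 fold change of 0.32 had an interval of -0.17 to 0.82 (adjusted p = 0.478). The member 15A model, maker-Hic_scaffold_8-augustus-gene-145.6, had 0 to 4 counts per bird and was not tested.

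The other class 3 models were those of members 8, 10 and 6. Member 8 (GLUT8), known as a carrier on internal membranes, was the least variable in the high-intake-fed group. Its model, maker-Hic_scaffold_23-augustus-gene-2.7, stood at 62.2, 66.1 and 78.0 CPM in the normally fed birds and at 70.6, 64.5 and 63.6 CPM in the high-intake-fed birds. The groups overlapped, and in CPM no bird stood apart. In the FPKM the values were 7.26, 10.7 and 12.8 against 11.9, 11.2 and 6.39, with high-intake-fed replicate 3 the lowest. Its log2 fold change of -0.05 had an interval of -0.49 to 0.38 (adjusted p = 0.913), or 0.714-fold to 1.30-fold.

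Member 10 (GLUT10), known from humans for a disorder of the arteries when it is lost, had the model maker-Hic_scaffold_19-augustus-gene-101.7. It stood at 19.4, 17.4 and 16.3 CPM in the normally fed birds and at 19.6, 33.8 and 20.7 CPM in the high-intake-fed birds. The groups did not overlap, but the highest normally fed and the lowest high-intake-fed bird were nearly equal. Scaled by library size alone the groups overlapped, with 20.6 CPM in normally fed replicate 1 and 17.8 CPM in high-intake-fed replicate 1. The log2 fold change was 0.48 ± 0.256 (SE; adjusted p = 0.367). Member 6, whose model is maker-Hic_scaffold_23-augustus-gene-45.8, was low, at 2.48 to 3.26 CPM in the normally fed and 1.88 to 3.75 CPM in the high-intake-fed birds, with a log2 fold change of -0.01 and an interval of -0.88 to 0.86 (adjusted p = 0.989).

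The other class 1 models had few counts. Member 1 (GLUT1) is known as the basal glucose carrier of red blood cells in mammals and of many dividing cells. Its full-length model, maker-Hic_scaffold_21-augustus-gene-28.6, had 29, 38 and 35 counts in the normally fed birds and 47, 22 and 29 in the high-intake-fed birds. The high-intake-fed birds lay on both sides of the normally fed ones. Its log2 fold change was -0.00 with an interval of -1.002 to 0.99 (adjusted p = 0.998).

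A group of 5 incomplete class 1 models lay on chromosome 9 from 8965292 to 9776589. A short model with the member 1 name, maker-Hic_scaffold_9-augustus-gene-94.8, and a short one with the member 4 name, maker-Hic_scaffold_9-augustus-gene-94.9, lay 623 bases apart on the same strand. The first had 8 to 20 counts in the normally fed birds and 8 to 30 in the high-intake-fed birds, with a log2 fold change of 0.44 (adjusted p = 0.770). The second had 27, 23 and 25 counts against 16, 8 and 69, so that its highest and its 2 lowest birds were all high-intake-fed. Its log2 fold change was 0.29, and without high-intake-fed replicate 3 it was -0.97. The other 3 models with the member 4 name were augustus_masked-Hic_scaffold_9-processed-gene-97.4, with 2 to 23 counts, and 2 models with no count in most birds. Both member 3 models had 11 counts or fewer in every bird and were listed at an FPKM of 0 in all 6.

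Levels of different models are compared here per coding length, although the deposited FPKM did not scale alike with this measure. By it, member 5 led the order in the normally fed geese with 145 ± 30.3 CPM per coding kilobase (SD, n = 3). Member 2 followed with 97.2 ± 7.72, member 8 with 47.6 ± 5.69, the unnamed class 2 model of chromosome 17 with 31.95 ± 6.03 and member 9 with 16.3 ± 3.98. Each of these lay above the next, down to member 10, in every normally fed bird. Members 10 and 11B, with 9.97 and 8.21, had overlapping ranges, though member 10 was the higher within each normally fed bird. Member 12 was at place 12 of 21 with 0.734 ± 0.386.

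In the high-intake-fed geese member 2 led with 223 ± 65.4 CPM per coding kilobase, before member 5 with 157 ± 119 (SD, n = 3 each). Member 12 was at place 8 with 8.67 ± 2.80, next to member 11B with 10.3. In this group the ranges over birds overlapped for all 20 pairs of neighbours in the order. In the normally fed group they did not overlap for 8 of 20 pairs. These ranges leave out that both levels of a pair were measured in the same birds. Within each high-intake-fed bird, member 2 was above member 5 and member 10 above member 11B. With the deposited FPKM in place of counts per coding length, the 5 highest models of this group were the same 5. In the normally fed group 4 of the 5 were shared, and member 10 took the place of member 9.

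**Figure D3:**
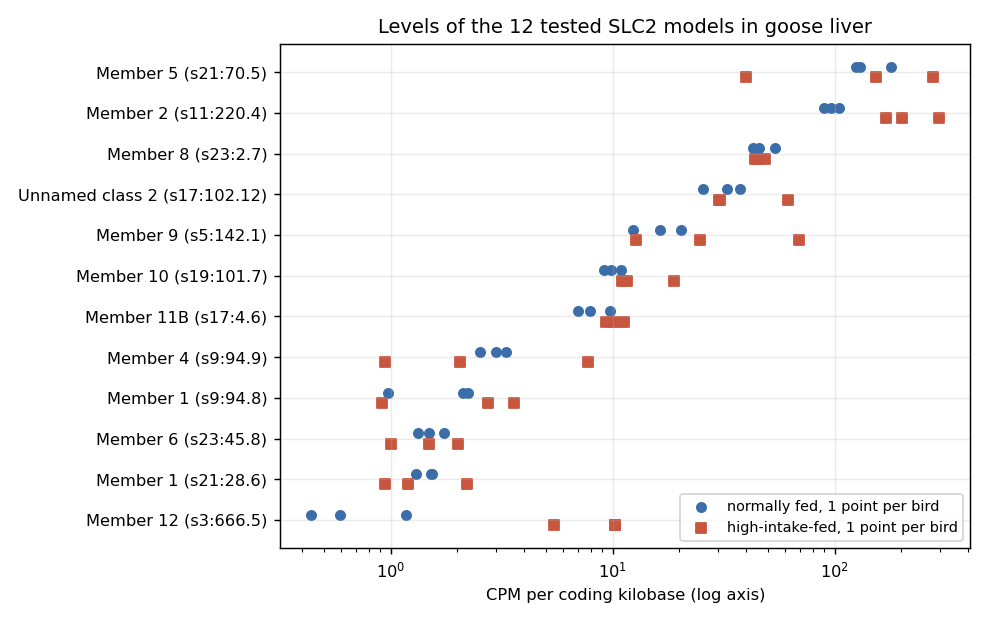
Level of each of the 12 tested SLC2 models in CPM per coding kilobase (x axis, log scale), with 1 circle for each normally fed and 1 square for each high-intake-fed bird. The levels run from below 1 for member 12 in the normally fed birds to above 200 for members 2 and 5 in the high-intake-fed birds, and the high-intake-fed squares are more widely spread in members 5, 9 and 4.

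The spread between birds was wider in the high-intake-fed group for 9 of the 12 tested models, as measured by the coefficient of variation. Over all 12914 models tested the share with the wider spread in that group was 73.2%, close to that of 9 in 12, and libraries of that group also correlated less with each other. For single models it was 75.7% against 21.0% for member 5, 83.3% against 24.3% for member 9 and 29.4% against 7.95% for member 2. Members 8, 11B and 12 went the other way, with 5.72% against 11.96%, 9.40% against 17.1% and 32.3% against 52.6%. With 3 birds per group these spreads are a description.

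As a sum, the SLC2 models took 604 ± 77.9 CPM in the normally fed and 893 ± 357 CPM in the high-intake-fed geese (SD, n = 3 each). By bird the sums were 694, 561 and 557 CPM against 565, 1273 and 842 CPM, so that the groups overlapped through high-intake-fed replicate 1. Members 2 and 5 together made up most of it in each bird. The sum of the class 1 models per coding length was 96.0 to 113 in the normally fed and 178 to 302 in the high-intake-fed birds. Nearly all of it was member 2, with means of 97.2 of 104 and 223 of 231. The sum of the class 2 models was 179 to 249 and 106 to 386. The class 3 sums were 56.3 to 65.0 and 62.6 to 75.9.

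**Figure D4:**
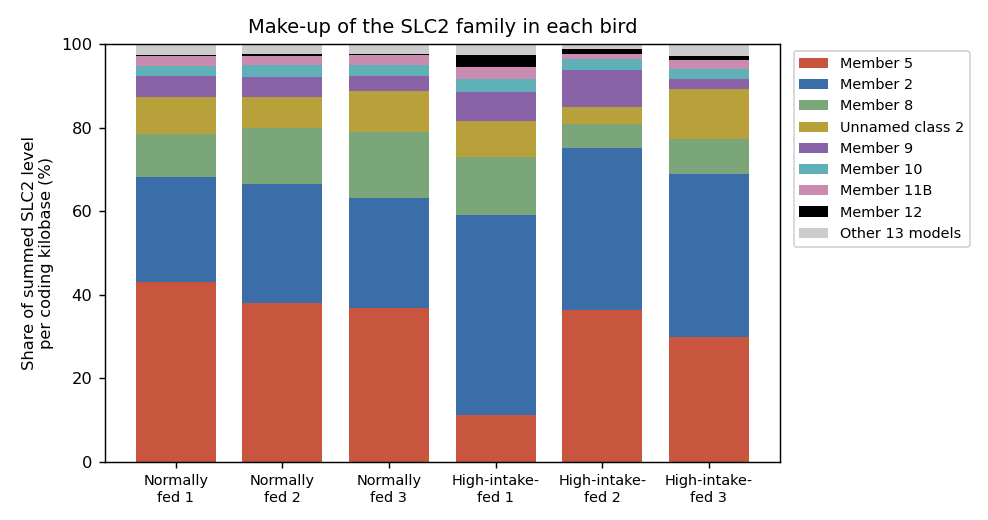
Share of each SLC2 model in the summed SLC2 level per coding kilobase (y axis, percent) in each of the 6 birds. Member 5 takes 36.7% to 43.0% in the normally fed and 11.2% to 36.3% in the high-intake-fed birds, while member 2 takes 25.2% to 28.4% and 38.7% to 48.0%.

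The models most like member 12 across the 6 birds were sought among 3974 models with a name and a mean of at least 5 CPM, by the root mean square difference of centred log2(CPM + 1) profiles. The nearest was described as PDZ and LIM domain protein 1 (a difference of 0.312), followed by histone acetyltransferase KAT2A (0.467), a heat shock protein of the 70 kDa family (0.476), an A kinase anchor protein (0.507) and GTP cyclohydrolase I (0.513). The first stood at 25.8, 37.2 and 27.1 CPM in the normally fed birds and at 142, 230 and 96.2 CPM in the high-intake-fed birds. As in member 12, the highest normally fed bird was replicate 2, and replicate 3 was the lowest of the high-intake-fed birds. Choice by likeness favours such a shared order, so it is no separate support. The log2 fold changes of these models were 1.83 to 2.42, below the 3.55 of member 12. KAT2A, with means of 2.94 and 15.8 CPM, reached the minimum level only through the high-intake-fed birds. These are descriptions over 6 points, and the groups set most of each profile.

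Other models of sugar entry were taken from a list of 66 models, of which 56 were tested. Of these 1 passed as higher and 0 passed as lower by edgeR's quasi-likelihood test. At an unadjusted p under 0.05 the numbers were 3 higher and 2 lower, where 18.4% of all models tested had such a p. DESeq2 called 3 (2 higher and 1 lower), where it called 7.29% of all models to which it gave an adjusted p. The 5 models with such an unadjusted p were 1 hexokinase, glucose-6-phosphatase, 2 arrestin domain models and 1 model of the TBC1D1 or TBC1D4 kind, so that no other role held any. The groups did not overlap for 7 of the 56 models, 3 higher and 4 lower, a smaller share than the 24.4% of all models tested. The median log2 fold change of the list was 0.12. The model that passed was a hexokinase, an enzyme that phosphorylates glucose after entry, on chromosome 8. It stood at 4.32, 9.28 and 2.71 CPM in the normally fed birds and at 54.0, 1059 and 245 CPM in the high-intake-fed birds (log2 fold change 6.38 ± 1.15 (SE), adjusted p = 0.0451). Its high-intake-fed birds differed widely, and replicate 2 was by far the highest. Without normally fed replicate 1, 2 or 3 no list model passed. The other 2 tested hexokinases had log2 fold changes of -0.33 and -0.26 (adjusted p = 0.471 and 0.697).

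On the side of glucose release, the glucose-6-phosphatase model stood at 371, 169 and 298 CPM in the normally fed and at 526, 541 and 797 CPM in the high-intake-fed birds. The groups did not overlap, and the log2 fold change of 1.15 ± 0.357 (SE) missed the threshold with edgeR (adjusted p = 0.152) and passed with DESeq2 (adjusted p = 0.0156). SLC37A4, which carries glucose-6-phosphate into the endoplasmic reticulum, had a log2 fold change of -0.37 (adjusted p = 0.571), and the tested SLC37A1 or SLC37A2 model on chromosome 1 had 0.40 (adjusted p = 0.424). None of the 4 tested models of release passed.

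Of 8 other tested sugar carriers, including sodium-coupled glucose carriers, the sugar carrier SWEET1 and the SLC45 carriers, 0 passed. The smallest p was that of the SLC45 member 3 model, with a log2 fold change of 0.81 (adjusted p = 0.444). SWEET1 had 0.35 (adjusted p = 0.711), and a model of the SLC45 family on chromosome 29 had 0.67 (adjusted p = 0.764). An inositol carrier model of the HMIT type did not meet the rule by its description, although HMIT, also called GLUT13, belongs to the SLC2 family. It stood at 4.83 to 6.97 CPM in the normally fed and 3.28 to 4.19 CPM in the high-intake-fed birds, so that the groups did not overlap and the high-intake-fed birds were the lower. Its log2 fold change was -0.64 and did not pass (adjusted p = 0.291).

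For fructose and galactose, 9 models were tested and 0 passed. The 3 smallest p values belonged to galactose mutarotase (log2 fold change -0.50), galactose-1-phosphate uridylyltransferase (0.40) and a low aldolase model (-0.41), with adjusted p of 0.422, 0.538 and 0.553. Of 10 tested models of the first steps after phosphorylation 0 passed. The smallest p values were those of a phosphofructokinase model (1.00, adjusted p = 0.316), phosphoglucomutase 1 (-0.49, adjusted p = 0.327) and a model of the enzyme that makes fructose-2,6-bisphosphate (1.22, adjusted p = 0.344). The phosphoglucomutase 1 groups did not overlap, with means of 619 ± 47.7 and 441 ± 28.8 CPM (SD, n = 3 each).

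Arrestin domain proteins, the family of TXNIP, which in mammals draws GLUT1 off the cell surface, gave 6 tested models, of which 0 passed. A model on chromosome 32 had a log2 fold change of -1.90 ± 0.592 (SE; adjusted p = 0.153), and DESeq2 called it as lower (adjusted p = 0.0124). Its normally fed birds stood at 25.7, 90.7 and 21.7 CPM and its high-intake-fed birds at 9.32, 8.51 and 19.2 CPM, so that the groups did not overlap. A model on chromosome 33 went the other way, with 0.94 ± 0.373 (SE; adjusted p = 0.234), and one on chromosome 13 had 0.54 (adjusted p = 0.414). Of 16 tested models of insulin signalling 0 passed. The 3 with the smallest p were a model of the TBC1D1 or TBC1D4 kind, a brake on carrier traffic in mammalian muscle and fat (log2 fold change -0.73, adjusted p = 0.189), one of the insulin receptor models (0.48, adjusted p = 0.308) and GRB10, an adaptor at that receptor (-0.47, adjusted p = 0.352).

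**Figure D5:**
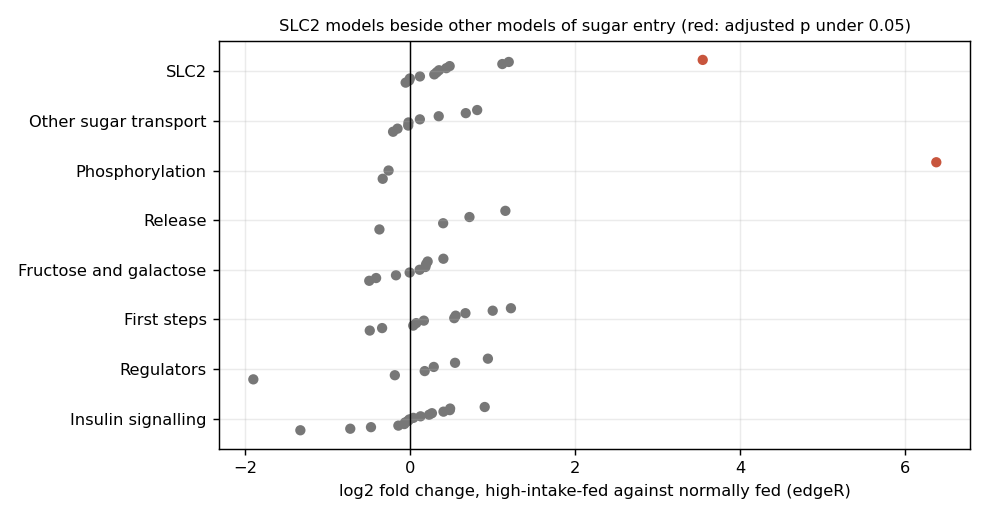
Log2 fold change between high-intake-fed and normally fed geese (x axis, edgeR) of each tested model, by role, with the 12 SLC2 models in the top row and the 56 tested models of the list below. The red points, at 3.55 for member 12 and at 6.38 for a hexokinase, are the ones past an adjusted p of 0.05.

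Apart from the SLC2 models, 119 other models of the major facilitator superfamily, to which SLC2 proteins belong, were in the table. Other sugar carriers, such as those of the SLC45 family, were not removed from this set, so it can share models with the list above. Of the 93 tested 2 passed, both as higher, beside 0.643% of all models passing as higher. Their median log2 fold change was -0.02 and the median of its absolute size was 0.38, against 0.34 in the 12 SLC2 models and 0.36 over all models.

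Hepatocyte markers were abundant in each library, with a summed level over 5 models of 223637 to 315820 CPM in the normally fed and 107660 to 249850 CPM in the high-intake-fed birds. Among them the transferrin model had means of 25568 and 8027 CPM, with groups that did not overlap, and did not pass (log2 fold change -1.67, adjusted p = 0.110). Of 37 marker models of all cell types 28 were tested, and 1 passed with edgeR, while 3 higher and 9 lower ones had an unadjusted p under 0.05 and DESeq2 called 7. These counts of 12 and 7 in 28 stand beside the 18.4% and 7.29% of all models given above. The sums of several marker lists differed between the groups, though not every model in them did. The 7 haemoglobin models summed to 209 to 369 CPM in the normally fed and 544 to 887 CPM in the high-intake-fed birds. The 5 endothelial models summed to 232 to 355 CPM in the normally fed and 184 to 202 CPM in the high-intake-fed birds. The sums that follow give the normally fed birds first. The 3 stellate and fibroblast models summed to 294 to 394 and 149 to 226 CPM, and the 8 macrophage models to 973 to 1112 and 535 to 866 CPM. No model of these lists passed with edgeR. Decorin, a von Willebrand factor model and CD74 had log2 fold changes of -0.88, -1.09 and -0.99. In the same lists lumican went the other way, with 0.93. PECAM1, VEGF receptor 2 and cathepsin S had -0.11, -0.15 and -0.22, with groups that overlapped. The 3 adipocyte models summed to 66.0 to 87.9 and 4.24 to 10.2 CPM, nearly all of it in the normally fed birds from the lipoprotein lipase model, the 1 that passed, as lower, with means of 72.3 and 1.90 CPM. The other adipocyte models, those of adiponectin and the leptin receptor, had log2 fold changes of 0.41 and -0.58 and did not pass (adjusted p = 0.812 and 0.448). The myoglobin model, the only muscle marker that was matched, was at 0 to 0.133 CPM in the 6 birds and was not tested. The part of cell make-up in the SLC2 values was not tested. In bulk liver, more cells of a type and more RNA per cell cannot be told apart.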

How the data were processed

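Ribosomal RNA was removed with probes and strand-specific libraries were made from liver RNA of 6 geese. The authors discarded ribosomal reads with Bowtie2, used HISAT2 to align the rest to the genome of the goose, and deposited unscaled counts for each gene model. The authors also deposited FPKM and a coding length for each model. The processing notes name FastQC and BWA. The study's methods mention HTSeq under enrichment and StringTie for transcript assembly and under circRNA, but tie neither to the counts of this table, so the counting program is not known here. The sources used here do not give its strand setting, the genome build or the annotation version. Models bear no symbols, so names come from the description or the enzyme number. No model was matched to glucokinase regulatory protein, the carbohydrate response factor MLXIPL or the AKT kinases, which are not analysed here.

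The whole table of counts was fitted with edgeR 4.0.16 by its quasi-likelihood method, with TMM scaling and no covariates, after filterByExpr (10 counts in enough libraries, 15 in all). This left 12914 models, and the Benjamini-Hochberg adjustment ran over all of them. The common biological coefficient of variation was 0.356. The script was tested on simulated data with 200 changed models, in which every model had that same common variation. CPM are counts scaled to library size by TMM, and levels of different models were compared after division by coding length. For single models a two-sided exact permutation test over the 6 birds was added.

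Alternatives were DESeq2 1.42.0, RLE size factors, scaling by library size alone, TMM with the 20 most abundant models left out of the library sizes, limma 3.58.1 (trend, log2(CPM + 1)), the exact test of edgeR, both no filter and a filter of 10 counts in each library, a replicate block, and each bird left out. All SLC2 models are covered, though some that were not tested are described without their identifiers. Of the list of sugar entry, models past adjusted p and up to 3 per role with the smallest p are named. The neighbouring models, the ratio of members 2 and 5, the HMIT-type model and list models beyond this rule were chosen after their values were seen. The members and the lists were chosen with earlier results of these data known.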

Additional observations from a re-analysis of the deposited data

How the results depend on the processing

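The member 12 model was higher in the high-intake-fed geese under all 15 alternatives, with log2 fold changes of 2.71 to 4.09, and passed under 13 of them (adjusted p up to 0.0803 over all). Leaving out each bird gave 3.32 to 4.09. The number of SLC2 models called was 2 in place of 1 with DESeq2 and with edgeR's exact test (members 12 and 2), and 0 to 1 with a bird left out. For the list of sugar entry the number was 3 with DESeq2, 2 with the exact test and 0 to 2 with a bird left out, and for all models 944, 795, 335 without a filter and 30 to 511 with a bird left out, in place of 190.

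Same-numbered birds deviated from their group means with r of -0.16, 0.03 and -0.18 over 12914 models. Differently numbered birds had r of -0.08 to 0.22. Deviations of 3 birds from their own mean are tied to each other, so these values cannot decide whether the numbers paired the birds. With the replicate block 61 models were called, and member 12 kept a log2 fold change of 3.60 (adjusted p = 0.0257).

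The direction of some log2 fold changes turned between settings or with a bird left out, without any call. Member 1 (full length) had 0.0138 with DESeq2, 0.00578 with RLE, 0.0236 without the 20 most abundant models and 0.00902 without a filter, and -0.44 to 0.23 with a bird left out. Member 6 had 0.00222 with DESeq2, 0.010 without the 20 models and 0.000828 without a filter, and -0.28 to 0.20. Member 5 had -0.25 with limma and -0.20 with the replicate block, and -0.58 to 0.58. Member 4 had -0.0188 and -0.19, and -0.97 to 0.74. With a bird left out, member 8 ran from -0.12 to 0.0808 and the unnamed chromosome 17 model from -0.0708 to 0.52. The cause was not tested. The simulated data counted calls of changes of 2-fold and more, so they do not bear on the direction of smaller ones.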

Other observations

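The insulin signalling list held 2 models described as the catalytic alpha subunit of PI3 kinase, and the counts fell on them differently between birds. The first stood at 303, 225 and 0 counts in the normally fed and 507, 431 and 0 counts in the high-intake-fed birds, and the second at 262, 236 and 737 against 9, 6 and 497. Replicate 3 of each group thus had its counts in the second model only, while normally fed replicates 1 and 2 had similar counts in both. The models share a description, and how reads were divided between them was not tested.

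The deposited FPKM and the counts per coding length did not scale alike between SLC2 models, nor always between birds, as given above for member 11B. In the normally fed birds the mean FPKM of member 2 was 27.1 beside 97.2 CPM per coding kilobase, and that of member 11B was 0.780 beside 8.21. Of the 21 models 4 were listed at an FPKM of 0 in all normally fed birds although 3 or more counts lay in at least 1 of them. The reverse was seen in the member 4 model maker-Hic_scaffold_9-augustus-gene-89.10. With 0 counts, it had FPKM of 0.182 and 0.718 in normally fed replicates 1 and 2 and 0.762 in high-intake-fed replicate 1. In high-intake-fed replicate 2 it had 2 counts and an FPKM of 0. Why was not tested.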
